A study of Mus musculus with 6 samples.

Results

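The 9 genes of the eye field and developing retina followed here in 661W cells were Pax6, Otx2, Lhx2, Six3, Six6, Rax, Sox2, Meis1 and Meis2. They were taken from the count table by gene symbol alone, so they are 9 of 38776 genes. The symbols themselves were chosen with earlier results of these data known. The 661W line is a single immortalized mouse line that was cloned from a retinal tumour of a mouse expressing the SV40 large T antigen, so all libraries share the viral antigen and the tumour origin. All cells were grown for 48 h in high glucose DMEM with 10% fetal calf serum (FCS). For a further 72 h the serum-fed cells then received the same medium afresh, and the serum-starved cells received DMEM without FCS. A single culture per condition was made at each of passages 24, 26 and 27, which makes n = 3 per condition with the passages as replicates 1, 2 and 3. These are described as independent experiments, but all of them are cultures of 1 line, so the spread between them is the spread of cultures and not of animals.

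In the vertebrate embryo the eye field is the part of the anterior neural plate from which both eyes form. It is marked by the overlapping expression of a small set of homeobox genes, among them Pax6, Rax, Six3, Six6 and Lhx2, which act upstream of and beside each other, while Otx2 prepares the forebrain territory in which the field arises. Sox2, an HMG box factor, holds neural and retinal progenitors in an undifferentiated state, and Meis1 and Meis2 are homeodomain proteins of the TALE class that bind DNA together with Pbx proteins and act upstream of Pax6 in the lens and retina. In the mature mouse retina most of these genes are confined to particular cells. Pax6 remains in amacrine, horizontal and ganglion cells, Otx2 in photoreceptors and bipolar cells as well as in the retinal pigment epithelium, and Lhx2, Rax, Six3 and Sox2 are found in Müller glia or subsets of inner neurons.

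The libraries held 71970076 to 87178722 counts each. Levels are given in CPM, the count of a gene per 1000000 counts of its library, as mean ± SD. Neither these levels nor the log2 ratios within passages carry the TMM scaling that the fitted fold changes use. Where a library had no count for a gene, up to 3 counts could have been missed by chance of counting, or 0.0344 to 0.0417 CPM; such limits and intervals of single counts cover counting error only. The study treats the line as a cone photoreceptor line with some features of retinal ganglion cells. It reports Opn1sw, Opn1mw and Arr3 as not expressed, and rests the cone origin on other cone markers such as Gnat2 and Rom1. Expression was judged there by a cutoff on transcript abundance (TPKM) over a longer list of cone genes. The values here use CPM, a filter on low counts and another list, so they do not test those calls. Of 12 photoreceptor markers 6 could be tested and the other 6 had too few counts, Arr3 and Rcvrn had no count in any library, and the 12 together came to 8.53 to 10.2 CPM in serum-fed and 7.71 to 10.3 CPM in serum-starved cells. Muscle and fibroblast markers were also present. In fed and starved cells of passages 24, 26 and 27 in turn, the 8 skeletal muscle markers summed to 48.4, 119, 60.2, 36.6, 534 and 206 CPM, and the 9 fibroblast markers to 815, 1824, 2583, 2079, 5505 and 6614 CPM. Since the RNA came from whole cultures, fewer cells of a type and less RNA per cell cannot be told apart in any value below.

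The promoters of 4 members are shown because the results turn on these genes. Pax6 is the 1 member that edgeR called between conditions at an adjusted p under 0.05. Meis1 and Meis2 are a pair with nearly equal levels, and Otx2 is the one with most matches to the motifs searched. Each run is the RefSeq window of the GRCm38.p6 assembly from 250 bases before to 50 bases after an annotated start, read 5′ to 3′ on the strand of the gene. Pax6 lies on the plus strand of chromosome 2, and its windows are chr2:105668646-105668945 (first) and chr2:105682213-105682512 (second). The Otx2 window is chr14:48665060-48665359 on the minus strand, 1 of 4 for that gene, the Meis1 window is chr11:19018920-19019219 on the minus strand, and the Meis2 window is chr2:116064570-116064869 on the minus strand. Capitals mark the letters of 4 motifs searched on both strands, TAATCC (bound by Otx proteins), TAATTA (by LIM and paired-type homeodomains such as Lhx2 and Rax), TGACAG (by Meis proteins) and ACAATG (by Sox proteins).
Pax6 first: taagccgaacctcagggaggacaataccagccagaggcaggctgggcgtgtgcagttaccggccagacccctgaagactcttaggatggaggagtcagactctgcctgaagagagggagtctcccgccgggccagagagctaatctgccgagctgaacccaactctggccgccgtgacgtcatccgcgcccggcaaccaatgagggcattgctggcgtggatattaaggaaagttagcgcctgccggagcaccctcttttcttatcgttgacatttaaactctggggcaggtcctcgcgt
Pax6 second: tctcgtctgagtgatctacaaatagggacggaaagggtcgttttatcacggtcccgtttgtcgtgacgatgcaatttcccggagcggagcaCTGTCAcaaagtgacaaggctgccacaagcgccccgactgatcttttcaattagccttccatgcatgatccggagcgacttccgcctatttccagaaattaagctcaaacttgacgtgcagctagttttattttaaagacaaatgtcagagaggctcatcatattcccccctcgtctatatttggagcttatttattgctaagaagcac
Otx2: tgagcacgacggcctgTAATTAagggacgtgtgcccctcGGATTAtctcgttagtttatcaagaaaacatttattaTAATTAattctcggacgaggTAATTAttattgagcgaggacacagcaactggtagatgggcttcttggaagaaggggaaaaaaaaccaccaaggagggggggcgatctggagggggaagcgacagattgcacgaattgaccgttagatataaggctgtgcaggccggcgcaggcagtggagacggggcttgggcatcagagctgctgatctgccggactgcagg
Meis1: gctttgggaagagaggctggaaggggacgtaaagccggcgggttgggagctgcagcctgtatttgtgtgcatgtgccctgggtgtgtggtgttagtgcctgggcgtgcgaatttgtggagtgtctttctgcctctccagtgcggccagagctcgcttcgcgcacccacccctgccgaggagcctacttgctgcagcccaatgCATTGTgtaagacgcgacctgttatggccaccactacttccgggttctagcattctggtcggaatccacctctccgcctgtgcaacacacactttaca
Meis2: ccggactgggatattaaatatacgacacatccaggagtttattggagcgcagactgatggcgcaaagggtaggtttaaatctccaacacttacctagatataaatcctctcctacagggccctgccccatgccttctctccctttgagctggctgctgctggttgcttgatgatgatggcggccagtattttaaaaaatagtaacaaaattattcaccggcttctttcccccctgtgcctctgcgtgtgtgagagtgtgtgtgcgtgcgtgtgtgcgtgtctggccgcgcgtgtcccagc

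For 8 of the 9 genes 13 such windows were searched, and Rax was left out by choice. The Meis motif was present in 4 of the 13, namely the second Pax6 window and those of Six3, Six6 and Sox2, and in 19.2% of all 32851 windows of the same length. The Otx motif was present in 1 of the 13, the Otx2 window printed here, which holds it once, and in 7.06% of all windows. The TAATTA motif was present in 2 of the 13, both of Otx2, and the printed one holds it 3 times; the share of all windows was 5.29%. The Sox motif was present in 1 of the 13, that of Meis1, against 12.6% of all windows. The first Pax6 window and the Meis2 window hold none of the 4. The windows of Lhx2 were the richest in G and C, with 74.7% and 69.3% against a median of 52.7% over all windows, while those of Pax6 had 58.7% and 46.3%. Such matches describe the letters in these windows and do not show binding.

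Levels of the 9 genes were compared after division by the length of their exons. Pax6 had the highest mean level per kb of exon, 17.0 ± 7.88 CPM per kb in serum-fed and 29.3 ± 12.1 CPM per kb in serum-starved cells (SD, n = 3). Otx2 followed with 12.9 ± 0.831 and 13.8 ± 3.81 CPM per kb. The libraries of these neighbours overlapped, and Pax6 was above Otx2 in 5 of 6 libraries. Lhx2 came next with 7.36 ± 0.703 and 10.1 ± 1.60 CPM per kb. Otx2 was above Lhx2 in all 6 libraries, although the ranges over all libraries overlapped. Meis1 reached 3.82 ± 0.368 and 5.26 ± 1.14 CPM per kb, below every value of Lhx2. Meis2 reached 3.42 ± 0.318 and 4.71 ± 0.740 CPM per kb, and its range overlapped that of Meis1.

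A wide step separated these 5 genes from the other 4. Six3 stood at 0.541 ± 0.0795 and 0.453 ± 0.197 CPM per kb, below all values of Meis2. Rax followed at 0.0217 ± 0.0110 and 0.0222 ± 0.0150 CPM per kb, below all values of Six3. Six6 and Sox2 each had 2 counts in all 6 libraries together, so their order at the foot is not interpretable. The rank of some genes depended on the length used. Per kb of the longest coding sequence Pax6 was above Otx2 in all 6 libraries, Lhx2 was above Meis1 in only 1 of 6, and Meis1 was above Meis2 in 3 of 6. By CPM without a length, Pax6 ranked 629th of all genes in mean level.

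**Figure D1:**
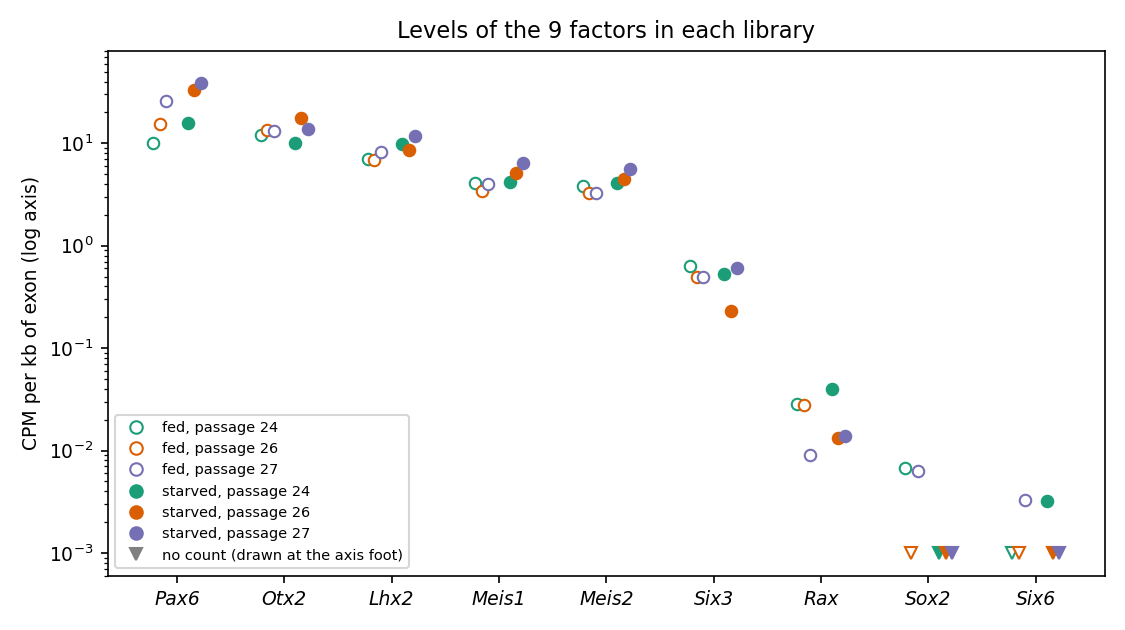
Level of each gene in each library, in CPM per kb of exon on a log axis, with open points for serum-fed and filled points for serum-starved cells and colours for the passages. Pax6, Otx2, Lhx2, Meis1 and Meis2 lie between 3.23 and 38.8 CPM per kb, Six3 lies below 1, and Sox2 and Six6 have no count in most libraries (triangles).

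Pax6, the paired-domain factor that is needed for eye formation across animals, was higher in starved cells of every passage and also rose from passage to passage. It is encoded on the plus strand of chromosome 2 (chr2:105668900-105697364, GRCm38). Serum-fed cells held 118, 179 and 299 CPM at passages 24, 26 and 27, and serum-starved cells held 183, 391 and 453 CPM. The lowest starved library, passage 24, lay beside the middle of the fed libraries, so the conditions overlapped, while within each passage the starved culture was the higher. With the passage as a block, edgeR's quasi-likelihood F-test gave a log2 fold change of 0.73 ± 0.15 (SE) for starved over fed, with a 95% interval of 0.39 to 1.07 and a Benjamini-Hochberg adjusted p of 0.0373 over 16168 genes. The log2 ratios within passages were 0.63, 1.13 and 0.60. The call was lost without passage 26 (replicate 2, adjusted p = 0.111) and without passage 27 (replicate 3, adjusted p = 0.0929), and the test with no passage block gave an adjusted p of 0.648. These fits called 328, 271 and 4 of all genes higher in turn, against 562 with all libraries and the block.

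The passages differed in Pax6 as well. Passage 26 lay above passage 24 by 0.77 ± 0.18 on the log2 scale and passage 27 lay above it by 1.23 ± 0.18, and edgeR's test of the passages gave an adjusted p of 0.0175. Passage 27 held 2.53 times the level of passage 24 in fed cells and 2.47 times in starved cells. That call was lost without passage 24 (replicate 1, adjusted p = 0.312) and without passage 27 (replicate 3, adjusted p = 0.0844). Without replicate 1 only 1 of all 15762 genes was called between passages, and without replicate 3 only 471 of 15778, against 2270 of 16168 with all libraries. The summed fibroblast markers also rose with passage and were higher in starved cells of every passage, and 5 of the 8 that could be tested were called higher, as were 3.48% of all genes. The summed skeletal muscle markers were highest in starved cells of passages 26 and 27, 4 of 6 tested being called higher. Of the markers of amacrine and horizontal cells, which hold Pax6 in the retina, 2 of 8 could be tested and none was called by edgeR or limma-voom (at an unadjusted p under 0.05, 1 was higher and 0 were lower; DESeq2 called Lhx1 higher). Of the markers of retinal progenitors and Müller glia 14 of 17 could be tested, and edgeR called 3 higher (Slc1a3, Dkk3 and Sfrp2, with log2 fold changes of 2.81, 1.19 and 1.30), 1 lower (Sox9, −1.01) and 6 between passages, where the shares of all genes were 3.48%, 1.60% and 14.0%. Their sum was 5629, 4171 and 3211 CPM in fed and 4514, 3065 and 3229 CPM in starved cells of passages 24, 26 and 27, with passage 24 the highest in each condition. Of the ganglion cell markers 6 of 9 could be tested, with 0 called higher and 1 lower (Gap43, log2 fold change −1.80, adjusted p = 0.0244). Their sum lay between 28.6 and 35.7 CPM in fed and between 31.6 and 58.5 CPM in starved cells. Of 5 markers of the corneal epithelium, which also holds Pax6, 2 could be tested and 1 was called higher (Aldh3a1, log2 fold change 2.24, adjusted p = 0.0161, and 0.0698 without replicate 3). Their sum was 5.52, 1.81 and 3.05 CPM in fed and 14.3, 16.2 and 15.6 CPM in starved cells, while Krt5 had no count and Krt12 had 2. The 13 markers of pigment epithelium and melanocytes summed to 6.75, 8.41 and 9.60 CPM in fed and 7.54, 13.3 and 16.6 CPM in starved cells. Of these 5 could be tested, and none was called by edgeR or limma-voom (at an unadjusted p under 0.05, 2 were higher and 0 were lower; DESeq2 called Tyrp1 higher). The part of any of these markers in the Pax6 result was not tested.

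Genes around Pax6 were examined on the same chromosome. Pax6os1, a non-coding RNA transcribed from the opposite strand, held 1.15, 2.27 and 3.84 CPM in fed and 2.61, 5.51 and 7.13 CPM in starved cells. Its order over the libraries resembled that of Pax6, with passage 27 highest in each condition and an overlap of the conditions. The log2 fold change was 1.06 ± 0.23 with an adjusted p of 0.0464, and the passages differed with an adjusted p of 0.0353 (edgeR). The call of Pax6os1 between conditions was lost without any 1 of the passages. Its adjusted p-values in edgeR were 0.0672, 0.235 and 0.122 without passages 24, 26 and 27 in turn. Pax6os1 counts came to 0.975% to 1.57% of those of Pax6, and the share was higher in the starved culture of each passage. The exons of these genes do not overlap in GENCODE M21, and the reads were counted by strand. Elp4, an Elongator subunit gene whose introns hold distant Pax6 enhancers, lies 3663 bp beyond Pax6 and held 26.0 ± 3.62 CPM in fed and 25.8 ± 2.83 CPM in starved cells. Its log2 fold change was −0.07 ± 0.14, with a 95% interval of −0.40 to 0.27 and an adjusted p of 0.819. Rcn1, a reticulocalbin gene 269581 bp away on the other side, went from 200.3 ± 24.2 to 272 ± 62.3 CPM, which did not pass the test (adjusted p = 0.150).

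**Figure D2:**
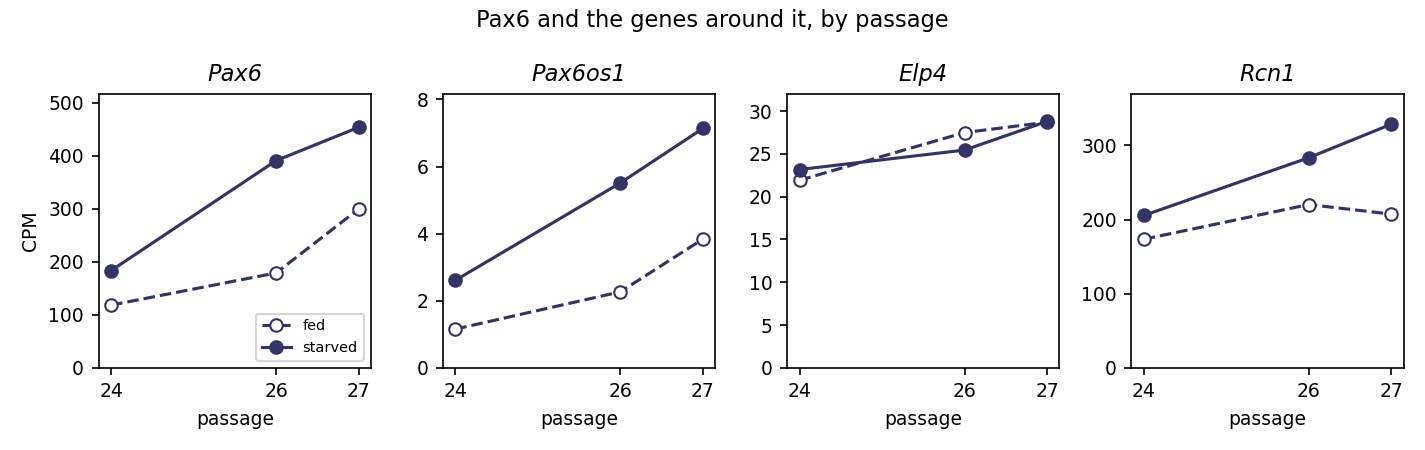
CPM of Pax6, its antisense RNA Pax6os1 and the neighbouring genes Elp4 and Rcn1 against passage, each panel on its own linear axis from 0, with dashed lines and open points for serum-fed and solid lines and filled points for serum-starved cells. Pax6 and Pax6os1 are higher in starved cells of each passage and highest at passage 27 in each condition, while the Elp4 lines cross.

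Lhx2, a LIM homeodomain factor needed for the optic vesicle to become an optic cup, had higher values in starved cells, but the difference did not pass the test. It lies on chromosome 2 (chr2:38339281-38369733, plus strand, GRCm38). Fed cells held 30.7, 30.4 and 35.9 CPM at passages 24, 26 and 27, and starved cells held 43.5, 37.5 and 51.5 CPM. In CPM without TMM scaling every starved library lay above every fed library, the nearest values being 37.5 and 35.9 CPM. With values this near, the separation may depend on the scaling. The share of all genes whose libraries separate like this was not counted, for Lhx2 or for the genes below. The log2 fold change was 0.38 ± 0.13, with a 95% interval of 0.08 to 0.69, an unadjusted p of 0.0197 and an adjusted p of 0.130 in edgeR's test. The log2 ratios within passages were 0.50, 0.30 and 0.52, close to each other. The passages did not pass the test either (adjusted p = 0.318).

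Meis1 and Meis2 were measured at nearly equal levels, and neither difference between conditions passed the test. Meis1 (chr11:18879817-19018985, minus strand, GRCm38) held 43.0, 35.8 and 41.8 CPM in fed cells and 44.5, 53.4 and 68.3 CPM in starved cells. Meis2 (chr2:115863064-116065839, minus strand, GRCm38) held 45.6, 38.9 and 39.1 CPM in fed cells and 49.6, 53.9 and 66.7 CPM in starved cells. For each gene the starved libraries all lay above the fed libraries in CPM without TMM scaling, a separation whose share over all genes was not counted. For Meis1 the lowest starved value, 44.5 CPM, lay just above the highest fed value, 43.0 CPM. Library totals in place of TMM moved its fitted log2 fold change from 0.39 to 0.45, so its separation may depend on the scaling. At passage 24 the starved culture exceeded the fed culture by little. The log2 ratios of Meis1 were 0.05, 0.58 and 0.71 at passages 24, 26 and 27, and those of Meis2 were 0.12, 0.47 and 0.77. The fitted log2 fold change of Meis1 was 0.39 ± 0.16, with a 95% interval of 0.02 to 0.76 and an adjusted p of 0.187. That of Meis2 was 0.40 ± 0.15, with a 95% interval of 0.04 to 0.76 and an adjusted p of 0.170 (edgeR). The passages did not pass the test for either gene (adjusted p = 0.520 and 0.764). The ratio of Meis1 to Meis2 counts stayed between 0.897 and 1.07 in the 6 libraries.

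Otx2, the homeodomain factor that directs photoreceptor and pigment epithelium fates, was present in every library with no common direction. It lies on chromosome 14 (chr14:48657677-48673819, minus strand, GRCm38). Fed cells held 50.6, 57.3 and 55.8 CPM and starved cells held 42.1, 74.3 and 57.9 CPM at passages 24, 26 and 27. The highest and the lowest library were both starved, so the starved libraries spanned the fed ones. The fitted log2 fold change was −0.00 ± 0.15, with an adjusted p of 0.996 and a 95% interval of −0.35 to 0.34. The log2 ratio of CPM was negative at passage 24 and positive at passages 26 and 27, with 0.05 at passage 27. Library totals in place of TMM moved the fitted log2 fold change from −0.00 to 0.05, so the sign at passage 27 may depend on the scaling. The passages did not pass the test (adjusted p = 0.273).

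Six3, a sine oculis-type homeodomain repressor of Wnt signalling in the forebrain and eye field, was low in all libraries. It lies on chromosome 17 (chr17:85613608-85629302, plus strand, GRCm38). Fed cells held 3.45, 2.69 and 2.70 CPM and starved cells held 2.86, 1.25 and 3.28 CPM. The starved culture of passage 26 was the lowest of all, and the other 5 libraries lay close together. The log2 fold change was −0.41 ± 0.32, with a 95% interval of −1.16 to 0.34 and an adjusted p of 0.480 (edgeR). Its level rested on 1260 counts in all, against 128569 for Pax6.

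Rax, the retina and anterior neural fold homeobox gene whose loss leaves mouse embryos without eyes, had 59 counts in the 6 libraries. Fed cells of passages 24, 26 and 27 had 12, 12 and 4 counts and starved cells had 18, 6 and 7 counts. Passage 24 had most counts in starved cells and shared the highest count in fed cells. The exact 95% interval of the highest library, starved passage 24, was 0.137 to 0.365 CPM, and that of the lowest, fed passage 27, was 0.0143 to 0.134 CPM. The log2 fold change was −0.05 ± 0.52 with an adjusted p of 0.969, and its 95% interval of −1.26 to 1.17 was the widest of the 7 tested members. The difference between passages did not pass the test (adjusted p = 0.212).

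Six6 and Sox2 were at the limit of detection and were not tested. Six6, a sine oculis-type factor of the optic vesicle and hypothalamus, had 1 count in fed cells of passage 27, 1 count in starved cells of passage 24 and none in the other 4 libraries. Sox2 had 1 count in fed cells of passage 24, 1 in fed cells of passage 27 and none in any starved library. All these counts lay under the 3 counts that a count of 0 allows, so no difference was readable. Sox2ot, the long non-coding RNA whose gene surrounds Sox2, had 1 count in all.

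**Figure D3:**
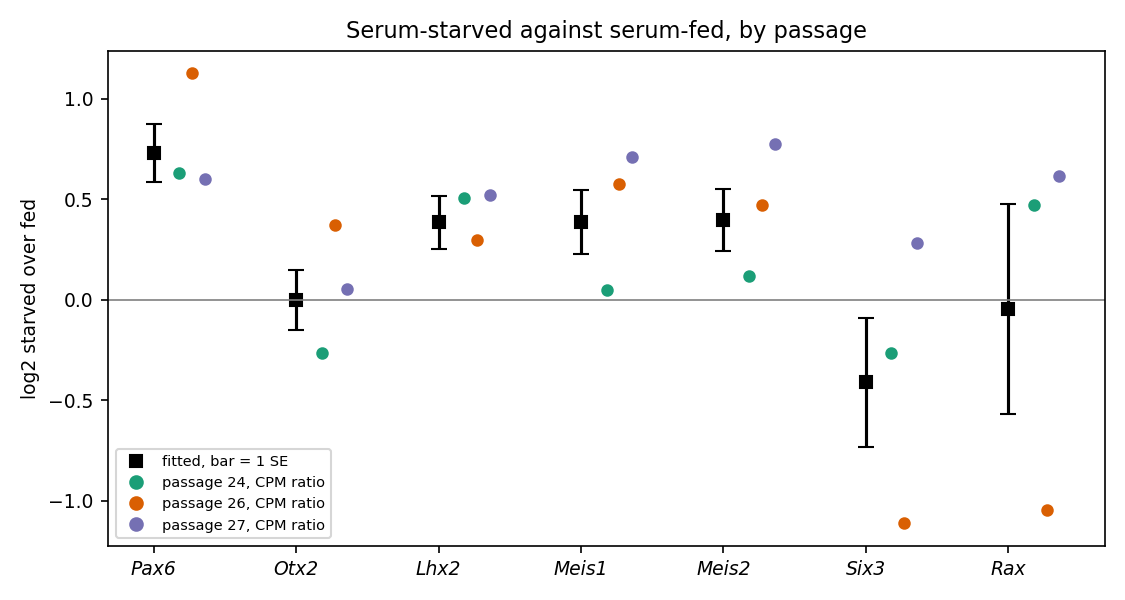
Log2 ratio of serum-starved over serum-fed cells for the 7 genes that could be tested. The fitted log2 fold change is a black square with 1 SE, and the CPM ratio of each passage, without TMM scaling, is a coloured point. Pax6, Lhx2, Meis1 and Meis2 have all 3 points above 0, while Otx2, Six3 and Rax have points on both sides of it.

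Of the 9 members 7 passed the filter on low counts, and 1 of these, Pax6, was called higher in starved cells at an adjusted p under 0.05, a call made for 3.48% of all genes tested. None was called lower, against 1.60% of all genes tested (edgeR; at an unadjusted p under 0.05, 4 members were higher and 0 lower, where 13.1% and 11.1% of all genes were, and DESeq2 and limma-voom with the passage also called Pax6 alone, against 7.38% and 3.93% of all genes called higher and 5.70% and 2.07% called lower). At the level of 0.01 stated by the study, edgeR called no member higher or lower, against 0.730% and 0.118% of all genes. DESeq2, fitted with the passage, called Pax6 at that level too (adjusted p = 0.000682), as it did 4.76% of all genes in that direction, and edgeR with no filter gave Pax6 an adjusted p of 0.00482. The median log2 fold change of the 7 was 0.38 and that of all genes tested was −0.00. Between passages 1 member, Pax6, was called at an adjusted p under 0.05, where 14.0% of all genes were called by edgeR, and none at 0.01, where 1.31% were. With DESeq2 the passage term of Pax6 had an adjusted p of 1.79e-06, under the 0.01 that 17.5% of all genes passed, and edgeR gave 0.000652 with no filter and 0.000132 without replicate 2. At an adjusted p under 0.05 these edgeR fits called 3528 of 24541 and 4360 of 15754 genes between passages. Whether the response to starvation differed between passages could not be tested, since each passage had 1 culture per condition.

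Across the 6 libraries the log2 CPM of Meis1 and Meis2 had a Pearson r of 0.944, the highest of any pair of the 7 tested members. Lhx2 had an r of 0.783 with Meis1 and 0.782 with Meis2. Pax6 and Rax had an r of −0.805, and Otx2 and Six3 an r of −0.736. These values describe 6 points that share passages, medium and library depth, and those of Rax rest on 59 counts in all. Compared with all genes of at least 1 CPM, the profile of Pax6 was most like those of Cx3cl1, which encodes the chemokine fractalkine (r = 0.999), the protocadherin gene Pcdhb20 (r = 0.998) and the sulfate transporter gene Slc26a2 (r = 0.998). Cx3cl1 held 62.5, 121 and 290 CPM in fed and 120 to 593 CPM in starved cells. Its conditions overlapped too. The profile of Otx2 was most like those of Rabep1 (r = 0.988), Musk and Bcl7a, that of Lhx2 like Zfp830 (r = 0.984), Rpa2 and Lrrc42, and that of Six3 like Ccdc65 (r = 0.995), Slc35d2 and BC030307. Meis1 was closest to Fam76a (r = 0.988), Ptx3 and Ikbip, Meis2 to Chpf2 (r = 0.987), Emb and Sapcd2, and Rax to Itfg2 (r = 0.989), Akt1s1 and Zyx. With 12567 genes compared over 6 points, values of this size name the nearest profiles only.

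Paralogues of the members were read from a list of 20 genes, 13 of which could be tested. Of these 2 were called higher and 0 lower in starved cells, against 3.48% and 1.60% of all genes, and the median log2 fold change was −0.00. Six4, a paralogue of Six3 and Six6 that acts in muscle and cranial placodes and was 1 of these, held 7.10, 14.5 and 19.4 CPM in fed and 11.4, 32.8 and 39.9 CPM in starved cells. The starved culture was the higher in each passage, while the lowest starved library lay inside the fed range. Its log2 fold change was 0.91 ± 0.17 (adjusted p = 0.0302, lost without replicate 2 at 0.0860 and without replicate 3 at 0.117). With no passage block the adjusted p of Six4 was 0.621. The skeletal muscle markers that were called higher were Myog, Myh3, Acta1 and Ckm, with log2 fold changes of 2.07, 2.72, 1.66 and 2.96, and their part in the Six4 result was not tested.

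Other paralogues did not pass. Meis3 held 22.2, 20.7 and 20.4 CPM in fed and 19.9, 13.8 and 17.5 CPM in starved cells. All its starved libraries lay below the fed ones, on the opposite side from Meis1 and Meis2, at an adjusted p of 0.217 for a log2 fold change of −0.38 ± 0.17. Otx1 went from 5.00 ± 1.37 to 7.08 ± 1.88 CPM (adjusted p = 0.222). Pax3, a factor of neural crest and muscle precursors, held 8.36 ± 4.30 CPM in fed and 8.45 ± 3.34 CPM in starved cells (adjusted p = 0.995). Crx, the Otx paralogue of photoreceptors, had 13 counts in all and was not tested. Between passages 5 of the 13 paralogues were called, among them Six4, Pax3, Pax8 and Sox21, where 14.0% of all genes were.

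Partner proteins of the members were well represented and mostly did not pass the test. Of 8 TALE partners none was called (edgeR, and 0 by limma-voom; at an unadjusted p under 0.05, 2 were higher and 1 was lower; DESeq2 called Pbx3 higher and Tgif1 lower). Pbx3, a DNA-binding partner of Meis proteins, held 38.5, 38.7 and 51.5 CPM in fed and 48.0, 85.2 and 91.1 CPM in starved cells, with 1 starved library below the highest fed one (log2 fold change 0.70 ± 0.17, adjusted p = 0.0579). Tgif1, a TALE repressor that competes with Meis proteins, held 167 ± 33.3 and 110 ± 40.0 CPM (log2 fold change −0.71 ± 0.21, adjusted p = 0.0940). Of 10 cofactors of LIM factors 8 could be tested and none was called by edgeR, DESeq2 or limma-voom (0 were higher and 1 was lower at an unadjusted p under 0.05). Beside the counts of both lists, 13.1% of all genes were higher and 11.1% lower at the unadjusted p. DESeq2 called 7.38% of all genes higher and 5.70% lower. Ldb1, the adaptor on which Lhx2 complexes are built, held 135 ± 11.6 and 138 ± 21.1 CPM, and Rlim, a ubiquitin ligase that removes it, held 183 ± 28.7 and 180.3 ± 30.9 CPM.

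Of 11 partners of sine oculis-type proteins 10 could be tested and none was called by edgeR (at an unadjusted p under 0.05, 4 were higher and 1 was lower), while limma-voom called 1 higher, and DESeq2 called 3 higher and Dach2 lower. The shares of all genes at these levels were 13.1% higher and 11.1% lower for the unadjusted p, 3.93% higher for limma-voom, and 7.38% higher and 5.70% lower for DESeq2. The median log2 fold change of the 10 was 0.42. Eya1, a phosphatase and coactivator of these proteins, held 12.4, 8.02 and 6.39 CPM in fed and 14.7, 18.9 and 16.8 CPM in starved cells. Every starved library lay above every fed library, and the adjusted p was 0.0850 for a log2 fold change of 0.90 ± 0.25. Eya4 held 8.92, 15.1 and 22.2 CPM in fed and 13.5, 44.2 and 36.2 CPM in starved cells, with an adjusted p of 0.0573 for a log2 fold change of 0.89 ± 0.21. The corepressor gene Tle3 held 71.6 ± 2.49 and 70.0 ± 6.63 CPM, and Gmnn, which encodes the Six3-binding replication inhibitor geminin, held 77.6 ± 10.8 and 72.8 ± 11.5 CPM.

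**Figure D4:**
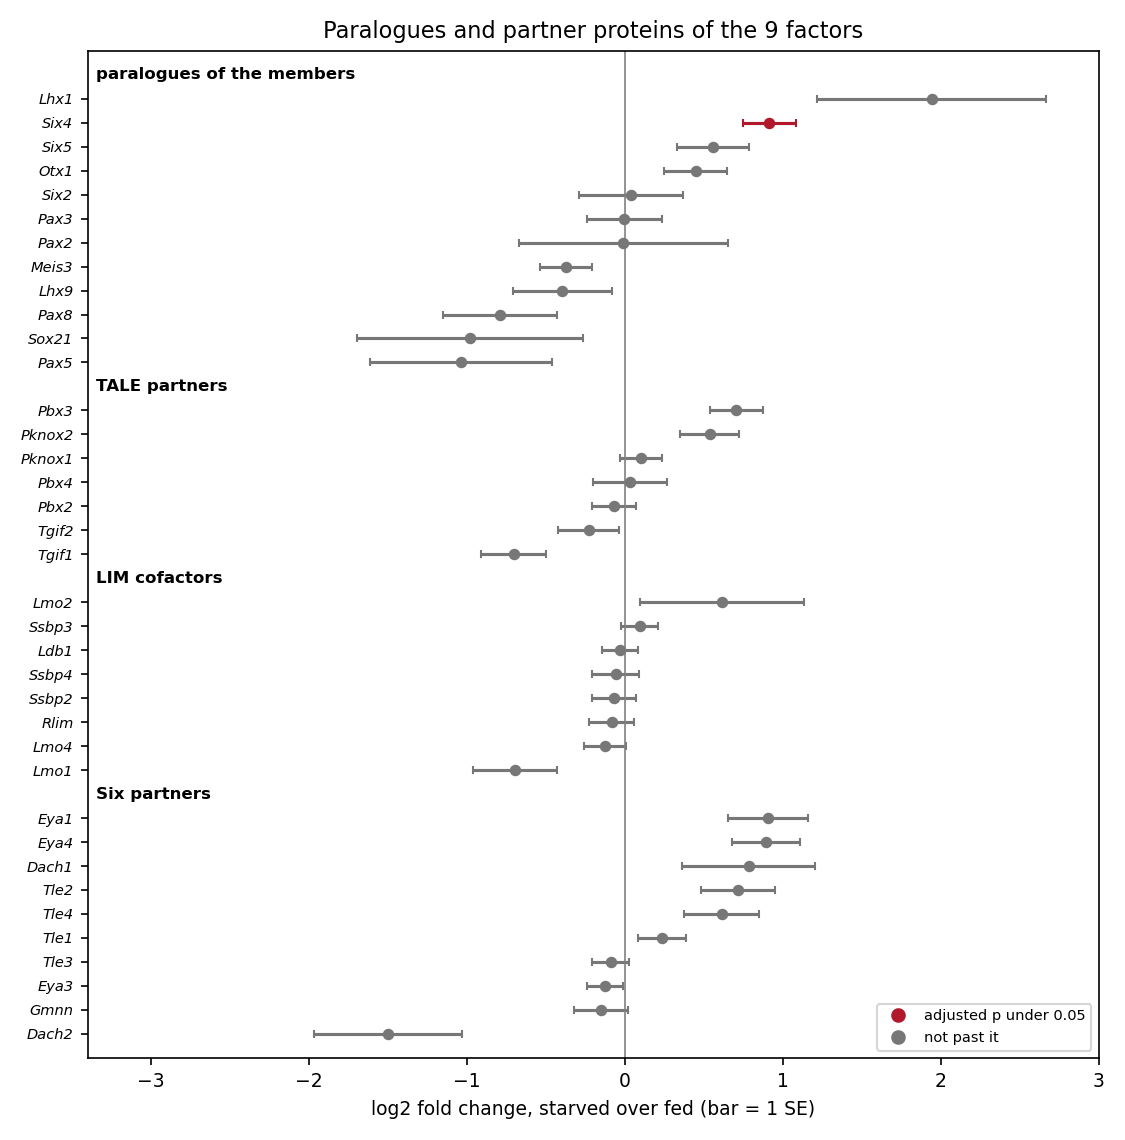
Fitted log2 fold changes, starved over fed, of tested paralogues and partner proteins of the 9 factors, with bars of 1 SE and red points for an adjusted p under 0.05. Six4 at 0.91 is the red point, and the others drawn are grey.

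Genes known as targets of Pax6 in brain, lens or cornea were read from a list of 13, of which 6 could be tested. Of these 2 were called higher and 0 lower in starved cells, against 3.48% and 1.60% of all genes, with a median log2 fold change of 0.43. Mab21l1, a gene of lens and eye development, held 43.3, 29.7 and 35.2 CPM in fed and 60.0, 70.6 and 71.6 CPM in starved cells. L1cam, a neural adhesion molecule, held 8.75, 4.96 and 5.62 CPM in fed and 14.4, 16.3 and 17.5 CPM in starved cells. For both genes all starved libraries lay above the fed ones, a separation whose share over all genes was not counted. The log2 fold change of Mab21l1 was 0.86 ± 0.17 with an adjusted p of 0.0355, and that of L1cam was 1.30 ± 0.24 with an adjusted p of 0.0313 (edgeR). Without replicate 2 these p-values were 0.0672 and 0.0537, and without replicate 3 they were 0.140 and 0.117. Neither was called between passages (adjusted p = 0.639 and 0.515), and the fed cultures of both were lowest at passage 26. Ncam1, another adhesion molecule, held 113 and 129 CPM (adjusted p = 0.650), and the lens crystallin gene Cryaa had 1 count in all.

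Targets of Otx2 in photoreceptors and pigment epithelium were few and low, with 3 of 8 open to a test and none called by edgeR or limma-voom (at an unadjusted p under 0.05, 1 was higher and 0 were lower; DESeq2 called Tyrp1 higher). Among all genes 13.1% were higher and 11.1% lower at that unadjusted p, and DESeq2 called 7.38% higher. Mitf, the master factor of pigment cells, held 4.22 and 6.26 CPM in fed and starved cells (adjusted p = 0.454). Rbp3, the interphotoreceptor retinoid-binding protein gene, had 4 counts in all, and Dct, a melanin pathway gene, had none. In the same libraries Otx2 itself was measured at 42.1 to 74.3 CPM.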

How the data were processed

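PolyA-selected, strand-marked libraries were sequenced, and the authors aligned the reads to GRCm38/mm10 with STAR and assigned them to genes by strand with HTSeq (union mode, reverse-stranded). The counts as deposited by the authors are raw and not normalized, and the versions of these tools were not given in the sources used here. The authors' own deposited comparison holds log2 fold changes, their p-values, a Wald score and a mean signal over normalized counts, and none of these was used. The table holds 38803 rows, of which 27 had a gene name turned into a date and were left out (0.223% to 0.301% of the counts).

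Counts were scaled with TMM, filtered with edgeR's filterByExpr (16168 genes kept) and tested by the quasi-likelihood F-test of edgeR with the passage as a block, adjusted by Benjamini-Hochberg over all genes tested. The labels tie each starved culture to the fed culture of its passage. Deviations of log2 CPM from the condition means correlated at 0.675, 0.273 and 0.605 within passages 24, 26 and 27. Between different passages they lay from −0.591 to 0.251, the highest being fed passage 27 with starved passage 26. Fold changes are starved over fed, and 95% intervals use the t distribution with the residual and median prior degrees of freedom. Intervals of single counts are Clopper-Pearson. Gene positions, exon and coding lengths come from GENCODE M21, promoters and their coordinates from RefSeq. The authors' annotation may differ from these. The members, the gene lists and the alternatives were chosen with earlier results of these data known. Of each list the text names the called genes and some of up to 4 others with the highest mean CPM, besides genes named after their values were seen. A few genes named by that rule are not reported here. The alternatives were DESeq2 and limma-voom, no passage block, scaling by RLE size factors or library totals, a filter of 10 counts in every library or none, a level of 0.01, coding length and leaving out each replicate. The tools were tested on simulated data. The hTERT-RPE1 data were not used here, and the Rax promoter is not shown. Figures and tables were made in Python 3.11.15 with matplotlib 3.10.9, pandas 2.3.3 and scipy 1.17.1, and fits in R 4.3.3 with limma 3.58.1, DESeq2 1.42.0 and edgeR 4.0.16.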

Additional observations from a re-analysis of the deposited data

Results flagged for a closer look

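Among the members, 3 had log2 ratios of starved over fed cells that pointed in different directions in different passages. With 1 culture per condition in each passage, a difference between passages in these ratios was not tested. All of them are ratios of CPM without TMM scaling. Otx2 gave −0.26 at passage 24, 0.37 at passage 26 and 0.054 at passage 27, the last so small that its sign may depend on the scaling. Six3 gave −0.27, −1.11 and 0.28, and Rax, on 59 counts, gave 0.47, −1.04 and 0.62. For Six3 and Rax passage 26 was the lowest ratio, while for Otx2 it was the highest. In the same passage the summed skeletal muscle markers stood at 119 CPM in fed and 534 CPM in starved cells, whose part in these ratios was not tested.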

How the results depend on the processing

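The count of members called higher in starved cells was 1 (Pax6) and fell to 0 at an adjusted p under 0.01 in edgeR, with no replicate block in edgeR and with no replicate block in DESeq2. Leaving out each replicate gave 0 to 1. Without the passage block edgeR called 4 genes higher and 0 lower among all 16168 and DESeq2 called 289 and 48, and the adjusted p of Pax6 became 0.648 (DESeq2 0.603). Pax6 stayed called with the passage in DESeq2 (adjusted p = 0.000682) and in limma-voom (0.0314), and with RLE size factors (0.0403), library totals (0.0286), no filter (0.00482) and the stricter filter (0.0381), and its log2 fold change lay between 0.58 and 0.82 throughout. No member was called lower in any of these settings, and the other 6 tested members were never called. The count of members that differ between passages was 1 and became 0 at an adjusted p under 0.01 in edgeR with its filter. Pax6 stayed under 0.01 in DESeq2 (1.79e-06) and with no filter in edgeR (0.000652). Leaving out replicates 1, 2 and 3 in turn gave 0, 1 and 0, where 1, 4360 and 471 of all genes were called. In the order by level, 4 of 9 ranks were kept when coding length replaced exon length, and all 9 when any replicate was left out. Rax had no value with the stricter filter and without replicate 1. Depth limited Six6 and Sox2, which had 2 counts each in all, and Rax rested on 59 counts.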

Other observations

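Genes that pattern the optic vesicle were present beside the 9 factors, and none of the 11 that could be tested of 17 was called in either direction (edgeR, DESeq2 with the passage and limma-voom; at an unadjusted p under 0.05, 1 was higher and 0 were lower). Among all genes 13.1% were higher and 11.1% lower at that unadjusted p. Bmp4, a signal of the dorsal optic cup, held 73.0 and 87.5 CPM (adjusted p = 0.396), and Vax2, a factor of the ventral retina, was present as well (log2 fold change 0.01 ± 0.15, adjusted p = 0.982). Among other genes of the dorsal and ventral retina, Tbx2 held 0.348 and 0.316 CPM, Tbx3 held 0.669 and 0.847 CPM, Vax1 had 3 counts in all and Tbx5 had none.

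Factors that commit retinal progenitors to neurons were mostly near 0. Of 21 such genes 6 could be tested, and edgeR and limma-voom called none (at an unadjusted p under 0.05, 1 was higher and 0 were lower; DESeq2 called Lhx1 higher). Onecut2, a factor of horizontal cells and early cones, held 3.80 and 5.11 CPM (adjusted p = 0.436), while Atoh7 had 1 count and Neurod1 and Neurod4 none. Of 13 transcription factors of photoreceptors 6 could be tested and none was called by edgeR, DESeq2 or limma-voom (at an unadjusted p under 0.05, 1 was higher and 1 was lower). Beside the counts of both lists, 13.1% of all genes were higher and 11.1% lower at the unadjusted p, and DESeq2 called 7.38% higher. Nrl, Nr2e3 and Rxrg, which set rod and cone identity, had no count in any library, whereas Rorb held 2.72 and 3.87 CPM and the broadly expressed Mef2d held 76.6 and 65.0 CPM.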
